A study of Mus musculus with 9 samples.

Results

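The genes described here are 40 members of the interferon response and of antigen presentation on MHC class I, out of 20655 genes with a row in the deposited tables. They were listed by symbol and matched through the Ensembl identifier without its version, and all 40 had a value. They fall into 6 roles: 4 transcription factors, 3 RNA sensors, 19 antiviral effectors and modifiers, 6 GTPases typical of interferon gamma, 5 genes of class I peptide processing and loading, and 3 chains of the class I molecule itself.

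The cells came from the subcutaneous white fat of C57BL/6 mice, taken from the inguinal and axillary depots at 12 days of age. No genetic change or treatment was named, males and females were mixed, and the labels did not say how many animals went into a library. Cells freed with Collagenase D and Dispase II were sorted by FACS into DPP4+, ICAM1+ and CD142+ cells, and RNA was sequenced from 3 libraries of each population, 9 libraries in all. CD142 is tissue factor, the protein of the gene F3. The value analysed here is the authors' mean normalised count of each gene over the 9 libraries, which is one number per gene without a spread. Values of single libraries or single populations were not analysed, so no difference between DPP4+, ICAM1+ and CD142+ cells is given or tested. Since a mean over libraries also mixes cells within each sort, fewer cells with a transcript and less transcript per cell cannot be told apart.

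Interferons are secreted proteins that warn cells of infection. Type I interferons act through a receptor whose signal brings a complex with STAT2 and IRF9 onto the interferon-stimulated response element (ISRE) in DNA, whereas the signal of interferon gamma ends at gamma-activated sites (GAS). The genes behind these elements encode proteins that sense or block viruses, and the machinery that cuts proteins into peptides and displays them on MHC class I, which nearly every nucleated cell carries at some level.

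To show the DNA next to the values, RefSeq promoter windows of build GRCm38.p6 were searched, each running from 250 bases before to 50 bases after an annotated start. The table gave windows for 30 of the 40 members. Those not matched were Dhx58, Usp18, Ifi27, Mx1, Mx2, Oas2, Rtp4, Parp14, Iigp1 and Tap2. The ISRE core searched was GAAANNGAAA and the GAS core was TTCNNNGAA, where N is any base. Both strands were searched, and the GAS letters read the same on either strand. Cores of one kind that overlap were counted each, and an ISRE and a GAS core shared bases in 1 member, Bst2. The 4 windows below belong to the members with the highest level per kilobase among those with an ISRE core. Only the 250 bases before the RefSeq start are shown, 5′ to 3′ on the strand of the gene, and capitals mark the ISRE core on either strand.
B2m: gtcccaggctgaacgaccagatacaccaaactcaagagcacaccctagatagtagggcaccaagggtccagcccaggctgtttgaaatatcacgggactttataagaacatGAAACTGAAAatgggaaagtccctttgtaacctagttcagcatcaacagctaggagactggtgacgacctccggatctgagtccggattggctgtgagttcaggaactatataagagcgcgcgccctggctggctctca
Gbp2: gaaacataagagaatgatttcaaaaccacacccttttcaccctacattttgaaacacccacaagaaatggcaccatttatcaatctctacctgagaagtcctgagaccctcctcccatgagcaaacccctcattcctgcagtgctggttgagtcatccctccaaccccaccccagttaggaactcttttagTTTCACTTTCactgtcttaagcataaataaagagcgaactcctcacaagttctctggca
Bst2: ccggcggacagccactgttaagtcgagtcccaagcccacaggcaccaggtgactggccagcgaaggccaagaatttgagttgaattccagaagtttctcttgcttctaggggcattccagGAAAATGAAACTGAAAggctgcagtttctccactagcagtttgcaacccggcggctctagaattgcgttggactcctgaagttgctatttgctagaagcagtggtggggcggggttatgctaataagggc
Irgm1: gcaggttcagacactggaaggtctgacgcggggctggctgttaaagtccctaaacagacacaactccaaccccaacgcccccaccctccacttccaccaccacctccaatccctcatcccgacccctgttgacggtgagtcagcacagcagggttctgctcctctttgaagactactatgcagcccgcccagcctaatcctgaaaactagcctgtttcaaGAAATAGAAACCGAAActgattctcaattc

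The B2m window lies at chr2:122147437-122147686 on the plus strand, and its core begins at -139, counted so that -1 is the base just before the start. The Gbp2 window lies at chr3:142620413-142620662 on the plus strand, with the core at -59 on the opposite strand. The Bst2 window lies at chr8:71537473-71537722 on the minus strand and holds 2 overlapping cores, the first at -130. The Irgm1 window lies at chr11:48871421-48871670 on the minus strand and also holds 2 overlapping cores, the first at -30. Starts differ between annotations. GENCODE M21 places the first base of the gene 1 base upstream of the RefSeq start for B2m, 61 bases upstream for Gbp2 and 263 bases upstream for Irgm1, and 16 bases downstream for Bst2. By GENCODE, therefore, the cores of Gbp2 and Irgm1 lie inside the span of the gene.

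An ISRE core was present in 16 of the 30 members with a window, or 53.3%, against 1079 of 27025 genes, or 3.99%, over the whole promoter table. The GAS core was present in 8 of 30 members, or 26.7%, against 9.55% of all genes. A stricter ISRE, GAAANNGAAACT, was found in 10 members, or 33.3%, against 0.303% of all genes. The members were listed as known interferon targets, and these shares describe the list and were not tested. A match is a run of letters and does not show that a factor was bound in these cells, and a window without a match says only that the letters are not in it.

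**Figure D1:**
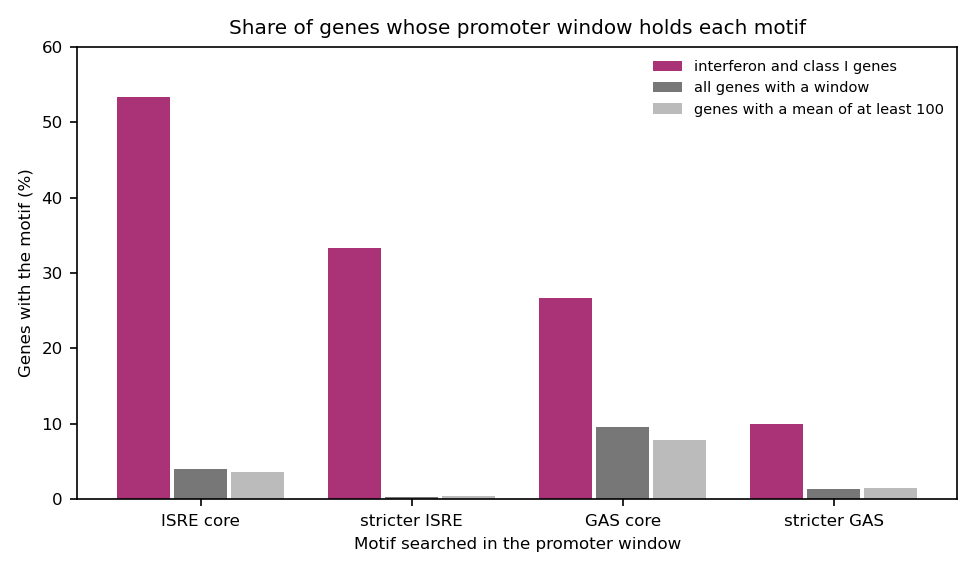
Bars give the share of genes (%) whose promoter window holds each motif, for the 30 interferon and class I genes with a window, for all 27025 genes with a window, and for the 6120 genes with a window and a mean normalised count of at least 100. The ISRE core stands at 53.3% in the interferon and class I genes and at 3.99% and 3.61% in the other groups.

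By role, all 5 gamma-type GTPases with a window (Gbp2, Gbp3, Gbp7, Igtp and Irgm1) held an ISRE core, as did both RNA sensors with a window, Ifih1 and Ddx58, where it lay past the start. Among the antiviral effectors 7 of 12 did (Ifit1, Ifit3, Ifit3b, Isg15, Oas1a, Rsad2 and Bst2), among the transcription factors 1 of 4 (Stat2), among the class I chains 1 of 3 (B2m), and among the peptide loading genes 0 of 4. Irf1, whose product drives many gamma-induced genes, held a GAS core at -90 and no ISRE core, and Psmb8 held a GAS core at -97. These were the only GAS carriers among the transcription factors and the peptide loading genes with a window. A GAS core was also held by 4 of 12 antiviral effectors (Ifit2, Ifi35, Oas1a and Bst2) and 2 of 5 gamma-type GTPases (Gbp7 and Igtp). No RNA sensor or class I chain with a window held a GAS core. The 25 ISRE cores of the 16 members began between -222 and 33, with a median of -72, and 22 of them lay within the last 200 bases before the start. Isg15 held 3 overlapping cores, the highest number in any member. Carrying a core did not go with a clearly higher level: the median was 62.0 mean normalised counts per kb in the 16 members with an ISRE core and 55.0 in the 14 without.

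**Figure D2:**
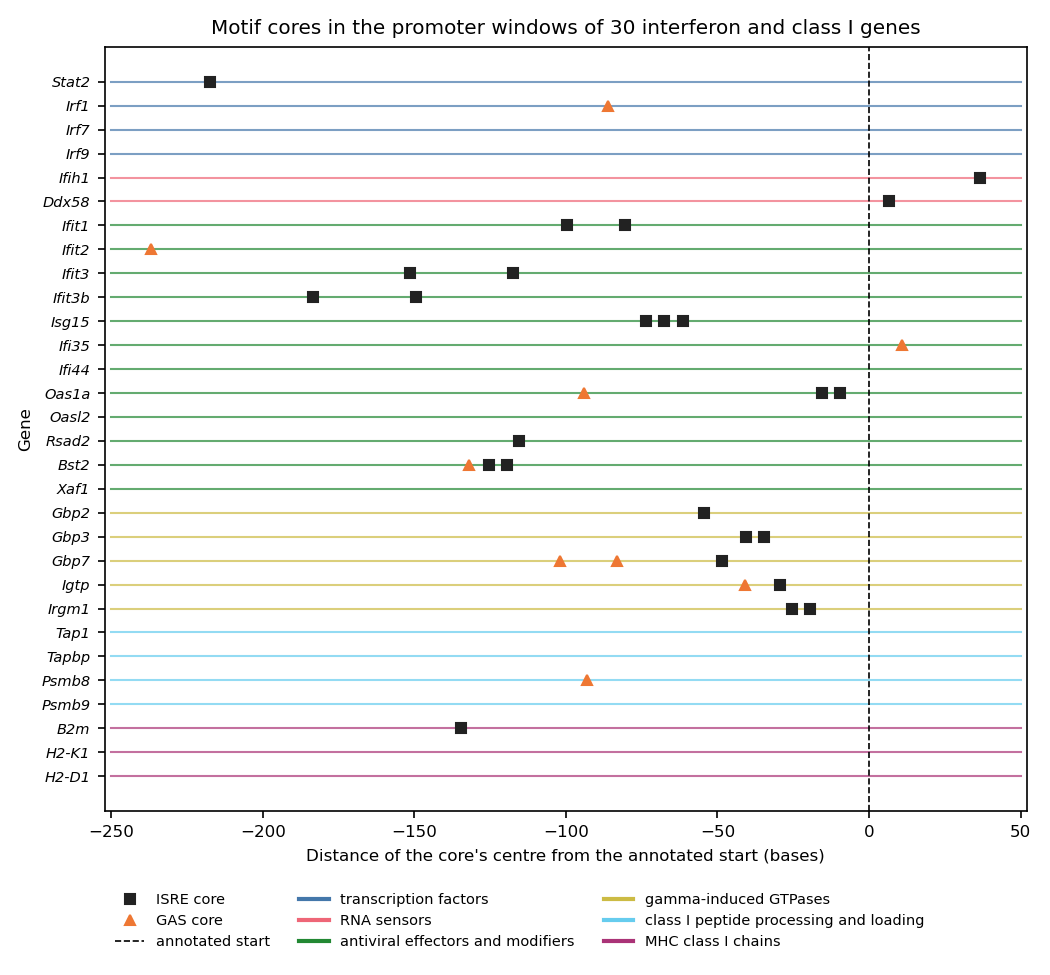
Each horizontal line is the promoter window of 1 gene, coloured by role, with the distance of a core's centre from the annotated start in bases on the x axis. Squares mark ISRE cores and triangles GAS cores, and the squares of the gamma-type GTPases sit close to the start whereas those of the Ifit genes and B2m sit further upstream.

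Levels are given below on 2 scales. The mean normalised count grows with the length of a gene, and a ratio of 2 genes on this scale is given only to show where the order depends on length. For comparisons between genes it was divided by the length of the gene's merged exons, giving mean normalised counts per kb, and each gene was ranked among 20618 genes with an annotated length. Of the 40 members, 26 had a mean normalised count of at least 100, or 65.0%, against 38.6% of all genes ranked. The median member stood at 49.3 counts per kb, at percentile 73.5, and the median gene at 15.1. In all, 30 of the 40 members lay above the median gene and 9 lay in the top 10%. These 9 were B2m, H2-D1, H2-K1, Irf1, Gbp2, Tapbp, Ifi27, Bst2 and Iigp1. The members ranged from 0.853 counts per kb for Mx1 to 3381 for B2m, a 3965-fold range whose lower end rests on a mean of only 3.23.

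**Figure D3:**
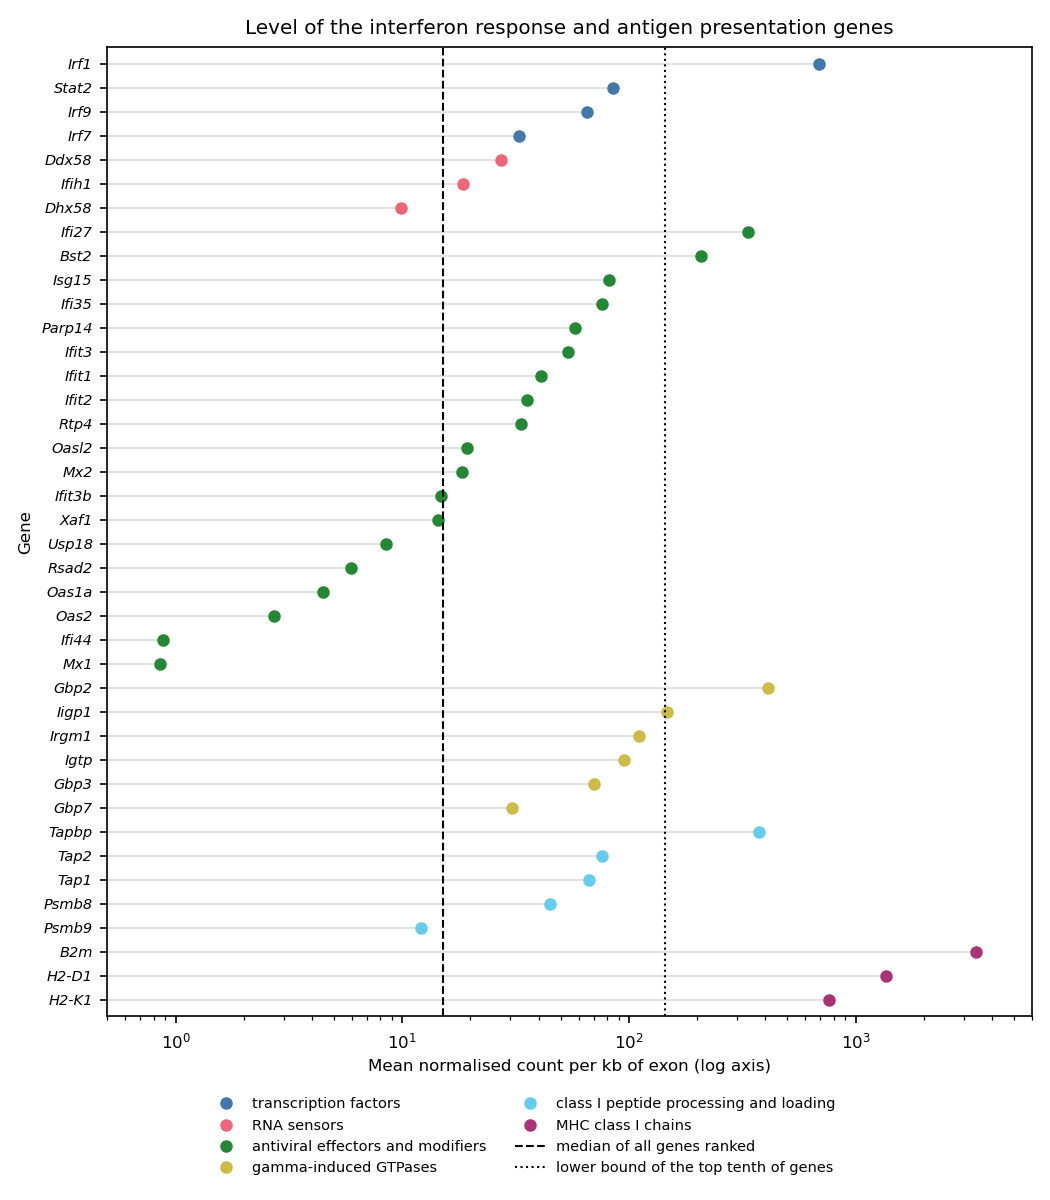
Each point is 1 of the 40 genes, placed by its mean normalised count per kb of exon over the 9 libraries (log axis) and coloured by role, with dashed and dotted lines at the median gene (15.1) and at the lower bound of the top 10% (144.9). The class I chains and Irf1 stand far to the right, and the antiviral effectors spread over the whole axis from Mx1 at 0.853 to Ifi27 at 335.6. The points carry no error bars because the mean over libraries is a single value.

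The transcription factors were led by Irf1. Its mean normalised count was 2753, or 692.5 per kb, at percentile 97.9. Stat2, a part of the type I complex, stood at 502.3 and 84.8 per kb, and Irf9, the DNA-binding part of that complex, stood at 351.4 and 65.2 per kb. Irf7, which amplifies type I interferon production, was the lowest of the 4 at 123.8, or 32.8 per kb, so that Irf1 was 21.1-fold above Irf7 per kb. Of the further factors looked up beside the members, the lowest was Ciita, the master regulator of MHC class II, at 0.469 per kb.

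The RNA sensors sat near the middle of all genes. Ddx58, which encodes RIG-I, had a mean of 192.5 and 27.3 counts per kb, and Ifih1, which encodes MDA5, had 150.9 and 18.5 per kb. Dhx58, which encodes the regulator LGP2, had 32.2 and 9.84 per kb, below the median gene. Among other sensors and their adaptors, Tmem173 (STING) was the highest at 119.3 per kb and Mavs, the adaptor of RIG-I and MDA5, stood at 33.4, whereas Tlr7 was the lowest at 0.571 per kb.

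The 19 antiviral effectors and modifiers were the most uneven role, with a 394-fold range per kb. Ifi27 was the highest at 335.6 counts per kb (mean 492.4), followed by Bst2, the tetherin that holds budding virus at the cell surface, at 208.4 (mean 188.2). Isg15, a ubiquitin-like modifier, stood at 81.5 per kb with a mean of 61.6 on a short gene, and Usp18, the protease that removes it, stood at 8.50, so that Isg15 was 9.59-fold above Usp18 per kb, with a ratio of 6.09 by longest transcript and 2.60 without length. The Ifit genes, whose products bind foreign RNA, lay above the median gene except Ifit3b: Ifit3 had 53.9 counts per kb, Ifit1 41.1 and Ifit2 35.6, and Ifit3b had 14.8, at percentile 49.6. The genes of the Ifit cluster share sequence, as given below, so the split between Ifit3 and Ifit3b is uncertain and both may be understated. Ifi35 stood at 76.0, Parp14, an ADP-ribosyltransferase, at 58.0, Rtp4 at 33.3, Oasl2 at 19.4 and Xaf1 at 14.5 counts per kb.

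The other members of the same role were below the median gene except Mx2, as were Ifit3b, Usp18 and Xaf1 above. Rsad2, which encodes viperin, had a mean of 25.7 and 5.92 counts per kb. Of the oligoadenylate synthetases, which make the signal that switches on RNase L, Oas1a had a mean of 8.46 and 4.49 per kb and Oas2 had 12.1 and 2.73 per kb. Ifi44 and Mx1 were the lowest members, with means of 5.40 and 3.23 and levels of 0.881 and 0.853 per kb, at percentiles 8.45 and 8.20. Mx2, the neighbour of Mx1 on chromosome 16, stood 21.5-fold above it at 18.4 per kb (mean 66.4). In GENCODE M21 Mx2 is labelled a polymorphic pseudogene, the only member not annotated as protein-coding. Laboratory strains such as C57BL/6 are known to carry broken Mx alleles, and a transcript count says nothing of the protein. Means this low rest on few reads, and the spread over libraries is not known. The order of Oas1a, Oas2, Ifi44 and Mx1 among themselves was therefore not resolved. Fold values with Mx1 as the lower end are uncertain for the same reason.

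All 6 listed GTPases typical of interferon gamma had a mean of at least 100 and lay above the median gene. Gbp7 was the lowest at percentile 63.8, and their median was 103.3 counts per kb. Gbp7 fell below the median once genes with a mean under 10 were left out. Some proteins of these families attack the vacuoles in which intracellular parasites and bacteria live. Gbp2 led the guanylate-binding proteins with a mean of 1033 and 410.6 per kb, 5.86-fold above Gbp3 at 70.1 and further above Gbp7 at 30.4. These 3 genes lie side by side within 107.7 kb on chromosome 3. Of the immunity-related GTPases, Iigp1 stood at 147.6 per kb (mean 859.6), Irgm1 at 111.3 (mean 646.6) and Igtp at 95.2 (mean 192.6). Related GTPase genes looked up beside the list were mostly lower. Gbp8 stood at 2.05, Tgtp1 at 2.62, Gbp5 at 12.5, Gbp6 at 12.8 and Tgtp2 at 14.2 counts per kb, all below the median gene, whereas Gbp9 at 17.4, Ifi47 at 37.2 and Irgm2 at 118.1 lay above it.

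Of the peptide processing and loading genes, Tapbp was the highest. It encodes tapasin, which holds empty class I molecules next to the peptide transporter, and it had a mean of 1361 and 375.2 counts per kb. The transporter's chains were close to each other, with Tap1 at 66.8 and Tap2 at 76.0 per kb, an order that turned over without length (ratio of Tap2 to Tap1 0.786), and Tapbp stood 5.62-fold above Tap1. Psmb8 and Psmb9 encode catalytic subunits that replace the usual ones when the immunoproteasome forms. Psmb8 had 44.7 counts per kb and Psmb9 had 12.1, the only gene of this role below the median gene. The constitutive subunits were higher, with Psmb5 at 123.8 and Psmb6 at 191.0, so that Psmb8 was at 0.361 of Psmb5 and Psmb9 at 0.0631 of Psmb6 per kb. The third pair was closer, with Psmb10 at 77.0 and Psmb7 at 106.3, a ratio of 0.724 per kb and 0.361 without length. Without division by length the ratio of Psmb8 to Psmb5 turned over, to 1.36, so the order of Psmb8 and Psmb5 depends on the length used. The order of Psmb9 and Psmb6 did not turn, with a ratio of 0.123 without length. Among the other genes of the same pathway looked up, Calr was the highest at 1872 per kb. Pdia3 stood at 1397, and the lowest, Tapbpl, was at 37.2.

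The chains of the class I molecule were the highest role. B2m, the light chain, had a mean of 2908 on 860 bases of exon, or 3381 counts per kb at percentile 99.6. The heavy chains H2-D1 and H2-K1 had means of 3515 and 2249, or 1363 and 765.6 per kb, at percentiles 98.9 and 98.1. B2m was 2.48-fold above H2-D1 and 4.42-fold above H2-K1 per kb. Without division by length the ratio of B2m to H2-D1 turned over, to 0.827, and that of B2m to H2-K1 was 1.29. These 3 genes made up 61.9% of the summed level per kb of all 40 members, against 11.4% for the 19 antiviral effectors, 9.84% for the transcription factors, 9.73% for the GTPases, 6.46% for peptide loading and 0.625% for the RNA sensors. Without length the class I chains made up 42.7%, the transcription factors 18.4%, the GTPases 15.4%, peptide loading 10.9%, the effectors 10.8% and the RNA sensors 1.85%, so that the order below the class I chains depends on the length used. Together the 40 members held 0.266% of the summed level per kb of all genes. The 10 highest genes that are no members held 43.5% of that sum. They were CT010467.1, Gm42418, Gm23935, Gm27483, Gm27786, H19, Sparc, Col1a1, Col1a2 and Col3a1. The highest of all genes stood at 727891 per kb, whereas Col3a1 and Col1a1, at ranks 5 and 6, stood at 76282 and 68786.

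MHC class II was low beside class I. None of its 6 genes had a mean of at least 100, and their median was 6.31 counts per kb. The highest was Cd74, the invariant chain, at percentile 59.0, and H2-K1 was 31.9-fold above it per kb. H2-Aa, a chain of the class II molecule, stood at 5.13 per kb. Other class I genes varied widely, from H2-Q4 at 547.4 per kb to H2-T24 at 9.07.

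The genes upstream of the members were mostly well above the median gene. Of 9 interferon receptor and kinase genes, 8 had a value and all 8 had a mean of at least 100. Jak1 was the highest at 419.0 counts per kb. Ifnar1 and Ifnar2, the type I receptor chains, stood at 86.6 and 113.0, Ifngr1 and Ifngr2, the gamma receptor chains, at 125.0 and 90.5, and Tyk2 was the lowest at 19.6. None of the 11 interferon genes looked up could be matched to a row, so no level is given for them. Of the brakes on the pathway, Socs3 stood at 2843 per kb, at percentile 99.5, and Socs1 at 179.9. Of 28 further interferon-induced genes with a value, 15 had a mean of at least 100. Ifitm3 was the highest at 2032 per kb, the chemokine Cxcl10 stood at 839.8 and Oas3 was the lowest at 0.144.

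The libraries carried markers of stromal cells at a high level. All 8 stromal markers had a mean of at least 1000, with Pdgfra at 364.0 and Col1a1 at 68786 counts per kb, and the sort genes Icam1, Dpp4 and F3 stood at 1237, 331.5 and 266.8. Leukocyte markers, which bear on antigen presentation genes, were mostly low, with a median of 3.24 counts per kb. Of 16 looked up, 13 had a value and 1 of these, Csf1r, had a mean of at least 100. Ptprc, which encodes CD45, had a mean of 20.3 and 1.11 per kb, or 3.54 by longest transcript. Adgre1, the macrophage marker F4/80, had 2.92 per kb, and the highest was Lyz2 at 36.4 per kb. Lyz2, Cd68, Csf1r and Cd3e lay above the median gene, at percentiles 67.5, 58.7, 53.6 and 50.1. The summed level of the 13 was 118.7 per kb. Endothelial markers were higher, with a median of 78.8 per kb over 6 genes and Cldn5 at 252.2. Whether such cells contributed to the interferon genes was not tested.

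**Figure D4:**
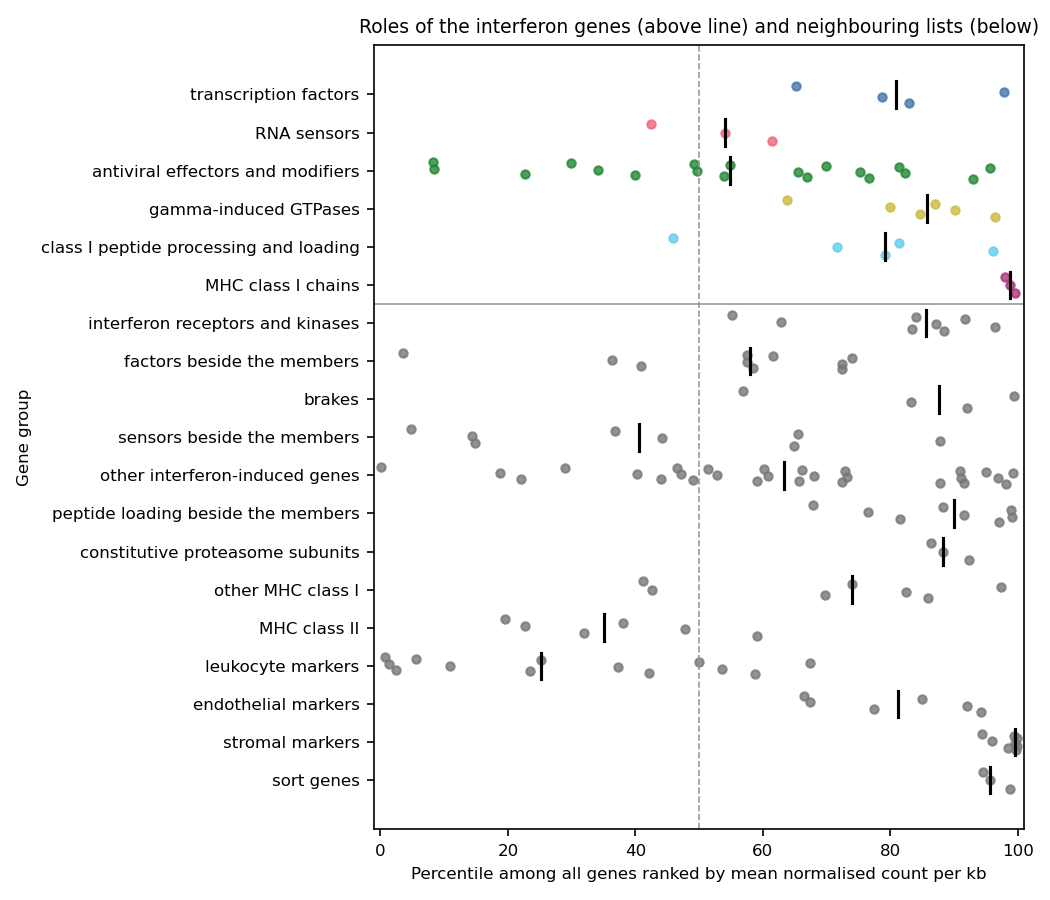
Points are genes, placed by their percentile among 20618 genes ranked by mean normalised count per kb, with the 6 roles of the interferon and class I genes in colour above the line and 13 neighbouring lists in grey below it. The black bar is the median of a list, at 98.9 for the class I chains, 54.9 for the antiviral effectors, 35.0 for MHC class II and 25.2 for leukocyte markers.

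Several members sit in clusters of related or neighbouring genes, which limits how well reads can be assigned. The 40 members lie on 15 chromosomes, and 19 of them lie within 1 Mb of another member in 6 places. The place with the most members, 300.4 kb of chromosome 17 in the MHC, holds Tapbp, H2-K1, Psmb9, Tap1, Psmb8 and Tap2. The Ifit cluster on chromosome 19 holds 4 members within 99.3 kb. In GENCODE M21 transcripts, 57.6% of the 50-base words of Oas1a also occur in another gene, mainly Oas1g, and the values were 51.2% for Ifit3, shared with Ifit3b, and 45.0% for Ifit3b. With 100-base words they were 40.9%, 31.7% and 27.4%. Tapbp shared 23.2% of its 50-base words mainly with Gm19412, which overlaps it. H2-D1 shared 12.8% and H2-K1 9.63%, mainly with other class I genes, and B2m, Bst2, Ifi27, Rsad2 and Oas2 shared none. The counting is not stated to use strand, and 5 members have over 5% of their exon bases under a gene on the other strand. The highest of these were Tapbp with 24.9%, Tap2 with 18.5%, Ifi35 with 16.8% and Psmb8 with 14.7%.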

How the data were processed

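RNA was sequenced from 9 libraries, 3 each of DPP4+, ICAM1+ and CD142+ cells. The submitters' notes in the labels list build mm10 and the tools R 3.5.1, STAR 2.5.2a and DESeq2. How reads were counted, and on which annotation, is not stated in the sources used here beyond the names of the summary rows. What the authors deposited were 3 tables, each with a mean normalised count over all libraries (a signal value) and 5 columns of their own pairwise comparisons: log2 fold change, its standard error, test statistic, p-value and adjusted p-value. Those 5 columns hold the authors' own results and were not used. The means were the same in all 3 tables, with a largest difference of 0. Of 20659 rows, 4 were summaries without a gene and were left out. The largest of them, reads outside annotated features, held 46.5% of the summed mean, and the genes held 40.4%. Multimapping reads (3.04%) and ambiguous reads (2.07%) had summary rows of their own. Reads set apart there are missing from the gene values, so genes with shared or overlapping sequence may be understated. By how much was not tested. Depth per library is not known, so no interval is given.

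Genes were matched by identifier to GENCODE M21 (GRCm38), which covered 20618 of 20655. Each mean was divided by the length of merged exons in kb, and percentiles were taken among the genes matched. Promoter windows were the RefSeq table for GRCm38.p6. Helper functions were checked on simulated data. Python 3.11.15 and pandas 2.3.3 were used. No test was run, since a mean over all libraries has no replicates, and no population was compared with another. The members and the gene lists beside them were chosen with earlier results of these data known. All 40 members are named. Of each neighbouring list, the genes named are the highest, the lowest or those a sentence turns on. A planned comparison of proteins was replaced, after the data were seen, by shared transcript words.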

Additional observations from a re-analysis of the deposited data

How the results depend on the processing

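With the minimum mean set at 1000 in place of 100, 6 members in place of 26 passed, and at 10 it was 37. Leaving out the 10 highest genes that are no members raised the members' share of the summed level per kb from 0.266% to 0.471%. The stricter motifs lowered the share of members with an ISRE from 53.3% to 33.3% and with a GAS from 26.7% to 10%, and over all genes from 3.99% to 0.303% and from 9.55% to 1.35%. With the longest transcript as length, without length, leaving out genes with a mean under 10, or ranking protein-coding genes alone, 31, 31, 25 and 27 members lay above the median, against 30. Xaf1 changed sides by longest transcript and without length. Ddx58, Gbp7, Ifih1, Mx2 and Oasl2 did so when genes with a mean under 10 were left out. Ifih1 and Oasl2 did so among protein-coding genes alone. Isg15 moved most without length, from percentile 82.4 to 54.0. The class I chains made up 61.9% of the members' summed level, 56.9% by longest transcript and 42.7% without length. Words of 100 bases in place of 50, chosen after seeing the data, left 3 in place of 4 members with over 20% shared sequence.

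No paired analysis was possible because the only values used were means over all libraries. Leaving out each library in turn was not run, since no value of a single library was used.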
